A study of Mus musculus with 10 samples.

Results

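The genes described here were the Ighv genes of the IGHV5 family other than IGHV5-2, in rearranged *Igh* loci of mouse peritoneal cavity B-1a cells. The 8 members, IGHV5-4, IGHV5-6, IGHV5-9, IGHV5-9-1, IGHV5-12, IGHV5-15, IGHV5-16 and IGHV5-17, were chosen by name, and a clonotype counted for a member when that gene was the only V gene listed for it. Of the 8, 7 had a clonotype of their own, among 141 Ighv genes that did. A clonotype is 1 row of a library's table and stands for a rearrangement defined by its V, D and J genes and its CDR3 in amino acids, with the number of reads that carried it.

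A heavy chain variable exon is assembled by joining a D gene to a J gene and then a V gene to the DJ joint, and the CDR3 loop of the antibody spans these joints. The IGHV5 family, also known as the VH7183 family, lies at the end of the V gene cluster nearest the D genes. It is known for frequent rearrangement early in B cell development. Heavy chains made from some of its members, IGHV5-2 above all, pair poorly with the surrogate light chain, so that cells carrying them tend to be lost at the pre-B cell receptor checkpoint. B-1a cells are a self-renewing B cell population of the body cavities that arises largely before birth and secretes natural antibody.

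The 4 libraries came from genomic DNA of sorted peritoneal B-1a cells of C57BL/6 background mice aged 6 to 8 weeks, 2 from wild-type and 2 from Igll1-/- animals. *Igll1* encodes lambda5, a component of the surrogate light chain, and its loss in the whole animal removes the pre-B cell receptor. The comparison asks whether V genes are used differently when that checkpoint is missing. The study describes the replicates as independent experiments, and the number of mice behind each library is not given in the sources used here. The deletion itself cannot be read from *Igh* tables.

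Wild-type replicates 1 and 2 comprised 55129 and 49809 clonotypes (215990 and 212670 reads), and Igll1-/- replicates 1 and 2 comprised 32386 and 58205 (180593 and 285517 reads). Most clonotypes, 68.0% to 73.4% in each library, were seen in a single read. A count of 0 allows a share of up to 0.0052% to 0.0093% of a library's clonotypes, taking 3 clonotypes as the floor. IGHV11-2 and IGHV12-3, V genes typical of B-1a cells that bind phosphatidylcholine, were present in each library. IGHV11-2 made up 2.99% and 4.79% of the clonotypes in the wild-type, against 0.82% and 0.96% in the Igll1-/- libraries, and IGHV12-3 made up 4.32% to 5.09% in the 4 libraries. A further 14.0%, 34.0%, 26.9% and 34.0% of the clonotypes (wild-type replicates 1 and 2, then Igll1-/- replicates 1 and 2) had the CDR3 and J gene of a clonotype listed with another V gene and at least 10 times the reads. Some fitted results are also given without them. The share of a V gene also depends on its primer in framework region 3, so levels of different genes are compared as measured.

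In the RefSeq gene table for GRCm38.p6, all 8 members are V segments on chromosome 12. The table lists 10 IGHV5 V segments, and from the D gene side the members come in the order IGHV5-4, IGHV5-6, IGHV5-9, IGHV5-12, IGHV5-9-1, IGHV5-15, IGHV5-16 and IGHV5-17. IGHV5-2 precedes all of them. IGHV5-17 is the farthest from the D genes of the 10, and IGHV5-4 is the nearest of the members.

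The CDR3 sequences below are those that held most reads of a member in a library, or that recurred in all 4 libraries. They are printed from the residue after the conserved cysteine, as the tables give them.
IGHV5-17, the CDR3 with most reads over the 4 libraries: ARHYYGSSYYFDY
IGHV5-17, the largest clonotype of Igll1-/- replicate 2: ANGNYVY
IGHV5-4, recurrent in all 4 libraries: ARDYYGSSYYFDY
IGHV5-4, the largest clonotype of Igll1-/- replicate 1: ASGNFAY
IGHV5-4, the largest clonotype of Igll1-/- replicate 2: ARWLLPY
IGHV5-12, the largest clonotype of both Igll1-/- libraries: ARHYYGSSWYFDV
IGHV5-15, the largest clonotype of Igll1-/- replicate 2: ARHDYDWYFDV
Those with YYGSS carry the D gene IGHD1-1, and IGHJ2 gives the ending YFDY.

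IGHV5-17 and IGHV5-4 were the most used members, and the 8 members together took 10.1% to 16.3% of a library's clonotypes. The summed share was 14.0% and 10.1% in the wild-type, against 14.2% and 16.3% in the Igll1-/- libraries. Both Igll1-/- values exceeded both wild-type values, although Igll1-/- replicate 1 exceeded wild-type replicate 1 only slightly. The wild-type mean was 12.05% ± 2.70 (SD, n = 2) and the Igll1-/- mean 15.2% ± 1.51 (SD, n = 2), a difference of 0.35 in mean log2 share. The exact two-sided permutation test gave p = 0.33, the smallest value that 2 against 2 libraries allow. Over the same libraries the IGHV1 family, the largest Ighv family, held 46.9% ± 2.44 (SD, n = 2) and 45.4% ± 0.88 (SD, n = 2) of the clonotypes. The IGHV2 family, which like IGHV5 lies near the D genes, held 0.75% ± 0.04 (SD, n = 2) and 1.02% ± 0.25 (SD, n = 2). Its Igll1-/- values, 1.20% and 0.84%, also both exceeded its wild-type values, 0.78% and 0.72%.

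IGHV5-17 made up 5.82% and 3.88% of the clonotypes in wild-type libraries and 5.73% and 7.03% in Igll1-/- libraries, with rank 1 among V genes in 3 libraries and rank 4 in wild-type replicate 2. The groups overlapped, since Igll1-/- replicate 1 lay below wild-type replicate 1. IGHV5-4 made up 4.34% and 3.53% in wild-type libraries and 4.88% and 5.09% in Igll1-/- libraries. Here the groups did not overlap, and IGHV5-4 had ranks 3 and 5 in wild-type libraries and rank 2 in both Igll1-/- libraries. Of the 91 V genes tested, 17.6% had both Igll1-/- values above both wild-type values, and among the 5 members tested IGHV5-4 was the only one.

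IGHV5-12 made up 2.60% and 1.81% of the clonotypes in wild-type libraries and 2.31% and 3.06% in Igll1-/- libraries. IGHV5-9 made up 1.10% and 0.86% in wild-type libraries and 1.17% and 0.93% in Igll1-/- libraries. In both genes the wild-type and Igll1-/- values were interleaved. IGHV5-15 was rare, with 46 and 26 clonotypes in wild-type libraries and 20 and 117 in Igll1-/- libraries. Its level in Igll1-/- replicate 2, 0.20%, stood above the 0.05% to 0.08% of the other libraries.

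Ordered by share, the members ran IGHV5-17, IGHV5-4, IGHV5-12, IGHV5-9 and IGHV5-15 in each library. The ranges of IGHV5-17 and IGHV5-4 overlapped across libraries, as 3.88% for IGHV5-17 in wild-type replicate 2 was below every IGHV5-4 value but that of the same library. The other neighbours in this order did not overlap. IGHV5-6 was listed alone for 9 clonotypes in the 4 libraries, IGHV5-16 for 1 and IGHV5-9-1 for 0.

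**Figure D1:**
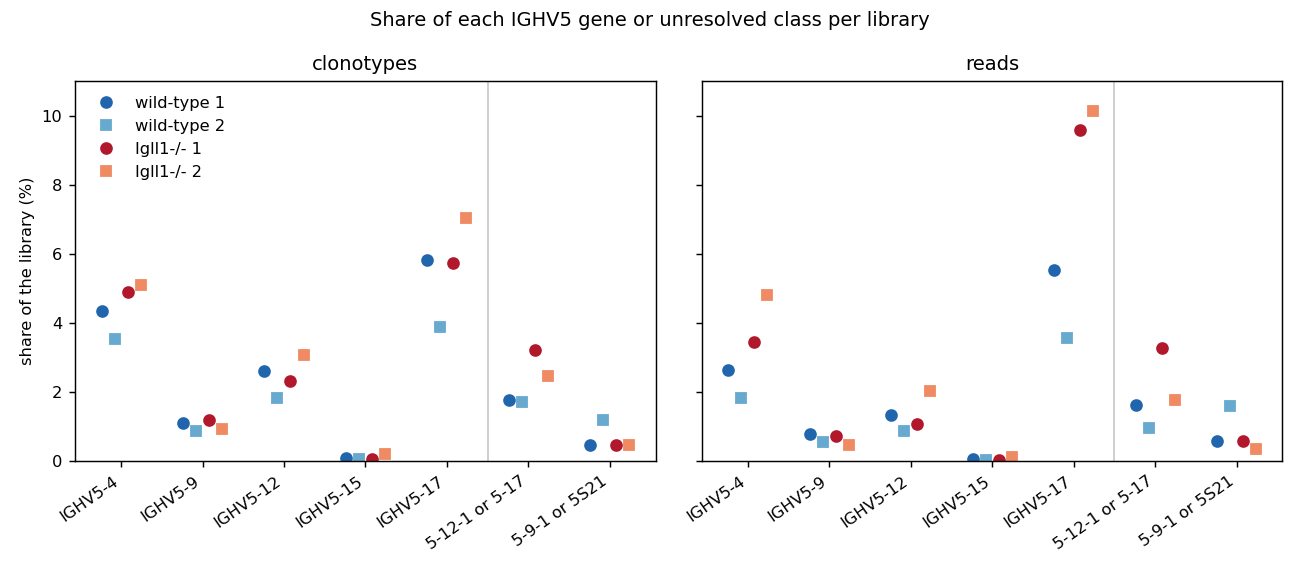
Share of each member, and of the 2 classes that could not be resolved to 1 gene, in percent of a library's clonotypes (left) and of its reads (right), with 1 point for each library. By clonotypes only IGHV5-4 and the class of IGHV5-12-1 or IGHV5-17 have both Igll1-/- points above both wild-type points, and by reads IGHV5-17, at 9.59% and 10.1% against 5.52% and 3.55%, joins them.

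None of the 5 members with enough clonotypes to test changed between genotypes by the quasi-likelihood test of edgeR, adjusted over 91 V genes by Benjamini-Hochberg. Across these 91 genes 0% were called, with 0 calls by edgeR, 8 genes at an unadjusted p under 0.05 and 1 call by DESeq2, which was no member. The log2 fold change (Igll1-/- over wild type) was 0.34 for IGHV5-4 (SE 0.17, edgeR adjusted p = 0.599). It was 0.39 for IGHV5-17 (SE 0.24, edgeR adjusted p = 0.599) and 0.28 for IGHV5-12 (SE 0.29, edgeR adjusted p = 0.790). IGHV5-9 stood at 0.10 (SE 0.35, edgeR adjusted p = 0.924), and IGHV5-15 at 0.96 (SE 0.73, edgeR adjusted p = 0.645). The median of the 5 members was 0.34, beside −0.03 over all genes tested. Without Igll1-/- replicate 2 the value of IGHV5-15 turned to −0.14, and IGHV5-9 turned to −0.17 when reads were counted. The value of IGHV5-4 was 1.15 among clonotypes of at least 10 reads (edgeR adjusted p = 0.056) and 0.90 by reads (edgeR adjusted p = 0.498), and that of IGHV5-17 was 1.12 by reads (edgeR adjusted p = 0.400).

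With all clonotypes counted, libraries of the same genotype differed from each other about as often as libraries of different genotype. Fisher's exact test (two-sided, Benjamini-Hochberg adjusted) called 4 of 7 members between the wild-type replicates, where 45.2% of all V genes were called. It called 4 of 6 members between the Igll1-/- replicates, against 41.7% of all V genes. Between wild-type and Igll1-/- replicate 1 it called 2 of 7 members against 44.4% of V genes, IGHV5-4 being higher and IGHV5-12 lower in the Igll1-/- library. Between wild-type and Igll1-/- replicate 2 it called 4 of 6 members against 44.1%, and IGHV5-4, IGHV5-12, IGHV5-15 and IGHV5-17 were all higher in the Igll1-/- library. Among clonotypes of at least 10 reads this no longer held, as the wild-type replicates gave 9 calls over 87 V genes and the Igll1-/- replicates 8 over 90, with 0 of 5 members in each, against 18 of 85 V genes for the pair of replicates 1 and 21 of 92 for the pair of replicates 2, with 1 and 3 of 5 members. These tests compare libraries, not genotypes.

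Among the members that rarely appeared alone, IGHV5-9-1 and, by its alleles, IGHV5-6 were instead listed together with near-identical genes. IGHV5-16 was listed with other genes for 0 clonotypes, so it was nearly absent by either count. Between 14.1% and 22.6% of all IGHV5 clonotypes carried several V genes, close to the 14.3% to 21.04% of other clonotypes. The most frequent combination was IGHV5-12-1 or IGHV5-17, with 976 and 844 clonotypes in wild-type libraries and 1039 and 1424 in Igll1-/- libraries. At least 99.8% of these clonotypes in each library also named an allele of IGHV5-6, so clonotypes of that gene cannot be told apart from this class. The class made up 1.77% and 1.69% of the clonotypes in wild-type libraries and 3.21% and 2.45% in Igll1-/- libraries, without overlap. Among 91 V genes listed alone, 17.6% also had both Igll1-/- values above both wild-type values. That share was not computed over combinations of V genes.

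The other large combination, IGHV5-9-1 or IGHV5S21, held 253 and 588 clonotypes in wild-type libraries and 147 and 256 in Igll1-/- libraries. It made up 0.46% and 1.18% in wild-type libraries and 0.45% and 0.44% in Igll1-/- libraries, with wild-type replicate 2 standing apart. When each combination was tested as a feature of its own, neither class was called by edgeR, with log2 fold changes of 0.71 (SE 0.28, adjusted p = 0.395) and −0.87 (SE 0.59, adjusted p = 0.621). IGHV5-12-1, IGHV5-12-2, IGHV5-6-2 and IGHV5S21 have no entry in the RefSeq table used here.

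Among the remaining IGHV5 genes listed alone, IGHV5-2 held 0.30% ± 0.13 (SD, n = 2) of the clonotypes of wild-type libraries, against 0.32% ± 0.15 (SD, n = 2) of those of Igll1-/- libraries. IGHV5-1, a pseudogene in the RefSeq table, held 0.45% ± 0.22 (SD, n = 2) and 0.56% ± 0.50 (SD, n = 2), and IGHV5-12-2 held 0.24% ± 0.15 (SD, n = 2) and 0.40% ± 0.07 (SD, n = 2). IGHV5-6-2, IGHV5-12-1, IGHV5-12-4 and IGHV5-21 each averaged at most 0.03% of the clonotypes in either genotype. Each of the 4 leading members was thus used more than IGHV5-2 in each library.

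By reads the picture differed from that by clonotypes for IGHV5-17. Its reads made up 5.52% and 3.55% of the wild-type, against 9.59% and 10.1% of the Igll1-/- libraries, and the groups did not overlap (exact permutation p = 0.33, the smallest possible). IGHV5-4 reads made up 2.61% and 1.83% of the wild-type, against 3.45% and 4.81% of the Igll1-/- libraries, also without overlap. By this measure 20.9% of the 91 V genes had both Igll1-/- values above both wild-type values. No molecular barcode marked the template, so a read count mixes the number of cells with amplification.

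Much of the IGHV5-17 read share lay in a few clonotypes, and not in the same way in each library. The largest clonotype took 25.4%, 10%, 32.8% and 4.16% of the IGHV5-17 reads (wild-type replicates 1 and 2, then Igll1-/- replicates 1 and 2). In the first 3 of these libraries it had the CDR3 ARHYYGSSYYFDY, with 3022, 754 and 5677 reads. In Igll1-/- replicate 2 it was ANGNYVY with 1203 reads, while ARHYYGSSYYFDY had 124 reads under IGHV5-17 and 1359 under IGHV5-12-1. Igll1-/- replicate 1 also held an unproductive IGHV5-17 clonotype with 3671 reads, which was 21.2% of the reads of this gene there.

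Without ARHYYGSSYYFDY the IGHV5-17 share of reads was 4.10% and 3.18% in wild-type libraries and 6.40% and 10.1% in Igll1-/- libraries. When unproductive clonotypes were left out as well, it was 3.97% and 3.06% against 4.18% and 9.95%. Without the 10 largest IGHV5-17 clonotypes of each library it was 3.46% and 2.55% in wild-type libraries and 3.13% and 7.52% in Igll1-/- libraries, and the groups overlapped. Leaving out these 10 clonotypes took Igll1-/- replicate 1 below wild-type replicate 1, while Igll1-/- replicate 2 stayed above both wild-type libraries.

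The CDR3 ARHYYGSSYYFDY was not bound to 1 V gene. It occurred in 64 to 86 clonotypes per library, under 48 to 59 different V gene entries. IGHV5-4 carried it with 72 and 76 reads in wild-type libraries and 236 and 180 in Igll1-/- libraries. IGHV5-12 carried it with 60 and 26 reads in wild-type libraries and 69 and 82 in Igll1-/- libraries, and IGHV5-9 with 12 to 15 reads in each library. Its reads under other V genes were fewer than under its leading gene in each library, and whether they came from separate rearrangements or from assignment or amplification was not tested.

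Among productive clonotypes, IGHV5-4 was led by ARDYYGSSYYFDY with 179 reads in wild-type replicate 1 and by ARDHYGSSYYFDY with 190 reads in wild-type replicate 2. Over all its IGHV5-4 clonotypes ARDYYGSSYYFDY had 180 and 147 reads in wild-type libraries and 298 and 738 in Igll1-/- libraries. In Igll1-/- libraries other clonotypes were larger, ASGNFAY with 849 reads in replicate 1 and ARWLLPY with 2084 reads in replicate 2. These took 13.6% and 15.2% of the IGHV5-4 reads, above the 3.17% and 4.89% of the largest productive IGHV5-4 clonotype in wild-type libraries. The largest IGHV5-4 clonotype of wild-type replicate 1, at 3.40%, was unproductive. ARWLLPY had 24, 6 and 7 IGHV5-4 reads in the other 3 libraries. Without the 10 largest clonotypes IGHV5-4 made up 2.25% and 1.45% of the reads in wild-type libraries and 2.18% and 3.15% in Igll1-/- libraries, and the groups overlapped.

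The 10 largest IGHV5-12 clonotypes took 12.2% and 25.0% of its reads in wild-type libraries, against 33.4% and 33.8% in Igll1-/- libraries. For IGHV5-9 they took 30% and 46.3% in wild-type libraries and 53.7% and 37.2% in Igll1-/- libraries, so the groups overlapped. The largest IGHV5-12 clonotype took 2.08% and 5.80% of its reads in wild-type libraries and 10.5% and 11.6% in Igll1-/- libraries, where it was ARHYYGSSWYFDV with 200 and 671 reads. The largest IGHV5-9 clonotype took 4.97% and 8.98% in wild-type libraries and 23.9% and 11.6% in Igll1-/- libraries. In IGHV5-15 a single clonotype, ARHDYDWYFDV, held 167 of the 339 reads of Igll1-/- replicate 2, 49.3% of them. The share in the largest clonotype was higher in both Igll1-/- libraries than in both wild-type libraries for IGHV5-4, IGHV5-9, IGHV5-12 and IGHV5-15, and not for IGHV5-17. The same order was found in 44.8% of 87 V genes with a value in each library, so it was common outside the members too.

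**Figure D2:**
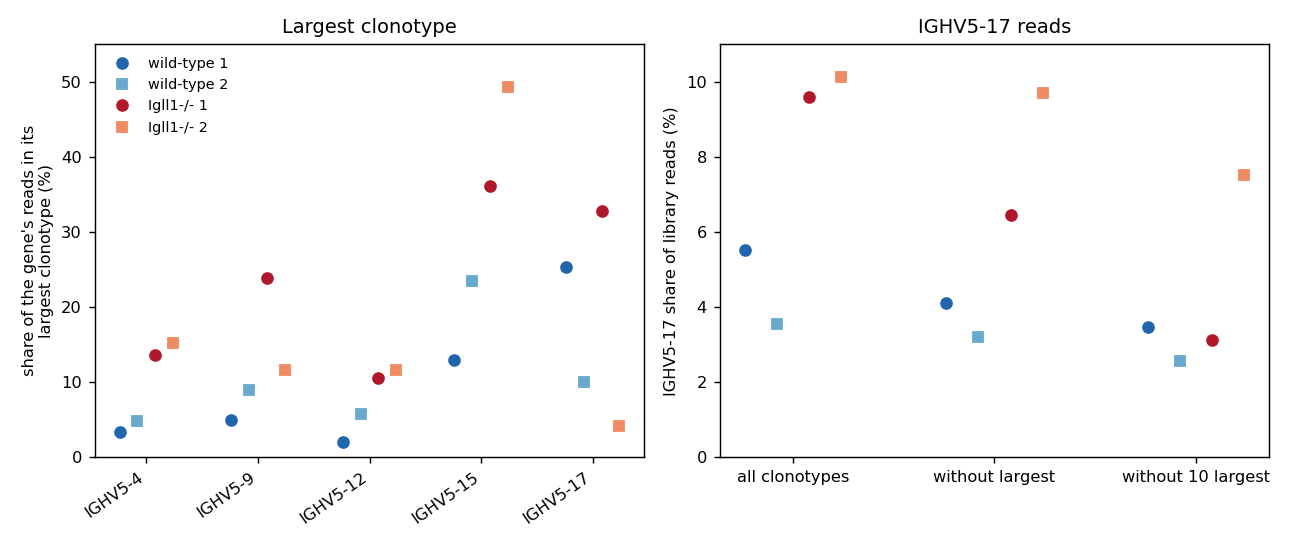
Left, share of a member's reads held by its largest clonotype, in percent, with 1 point for each library. Right, the IGHV5-17 share of all reads of a library, in percent, with all its clonotypes, without the largest and without the 10 largest, where Igll1-/- replicate 1 drops from 9.59% to 3.13% and Igll1-/- replicate 2 from 10.1% to 7.52%.

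Rearrangements out of frame or with a stop codon can be carried in B cells without being selected for their protein. The productive to unproductive ratio of a V gene can thus be read within the same library. Many of the largest unproductive clonotypes of the members had a stop codon within the CDR3. In IGHV5-15 of Igll1-/- replicate 2, ARHDYD*YFDV (2 reads) was 1 residue from the productive ARHDYDWYFDV (167 reads). Whether unproductive clonotypes were separate rearrangements or read errors was not tested. IGHV5-17 was the only member whose share rose significantly among productive clonotypes. It made up 6.03%, 4.01%, 5.86% and 7.17% of the productive clonotypes (wild-type replicates 1 and 2, then Igll1-/- replicates 1 and 2). Among unproductive clonotypes it made up 3.26%, 2.17%, 3.69% and 4.78%. The productive share was thus the higher in 4 of 4 libraries, with a fitted log2 ratio of 0.76 (SE 0.12, edgeR adjusted p = 0.0037). Of the 93 V genes tested, 6.45% were called higher among productive clonotypes and 1 of the 5 members tested was. The IGHV5-17 call was kept with near-identical clonotypes merged (log2 ratio 0.75, edgeR adjusted p = 0.0010). It was lost when clonotypes of at least 10 reads were kept (log2 ratio 1.29, edgeR adjusted p = 0.158). At that setting edgeR called 0 of 41 V genes, and 8 had an unadjusted p under 0.05.

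IGHV5-9 was also higher among productive clonotypes in 4 of 4 libraries, with log2 ratios per library of 0.54, 0.70, 0.36 and 0.40. Its fitted ratio, 0.50 (SE 0.15, edgeR adjusted p = 0.054), did not pass the threshold. IGHV5-4, at 0.02 (SE 0.14, edgeR adjusted p = 0.921), IGHV5-12, at −0.18 (SE 0.14, edgeR adjusted p = 0.422), and IGHV5-15, at 0.08 (SE 0.55, edgeR adjusted p = 0.921), had ratios of either sign in different libraries. The IGHV5-15 value rested on 1 to 4 unproductive clonotypes in each library. IGHV5-2, the member of the family set aside here, lay the other way, with a log2 ratio of −1.53 (SE 0.23, edgeR adjusted p = 0.0037).

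The productive share itself, as a percent of a gene's clonotypes, was 95.7% to 96.1% in the 4 libraries for IGHV5-17 and 94.6% to 95.6% for IGHV5-9. It was 90.8% to 94.5% for IGHV5-4 and 90.5% to 94.0% for IGHV5-12. Over all V genes a library held 92.3% to 94.0% productive clonotypes. In IGHV5-4 the lowest value, 90.8% (Wilson 95% interval 89.6% to 91.9%, counting error only), was that of wild-type replicate 1. The ratio differed between genotypes in no member by the edgeR interaction test, in which 1.08% of 93 V genes were called. The differences (Igll1-/- minus wild type, log2) lay between −0.27 and −0.05 for IGHV5-4, IGHV5-9, IGHV5-12 and IGHV5-17 and stood at 1.72 (SE 1.002, edgeR adjusted p = 0.632) for IGHV5-15.

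**Figure D3:**
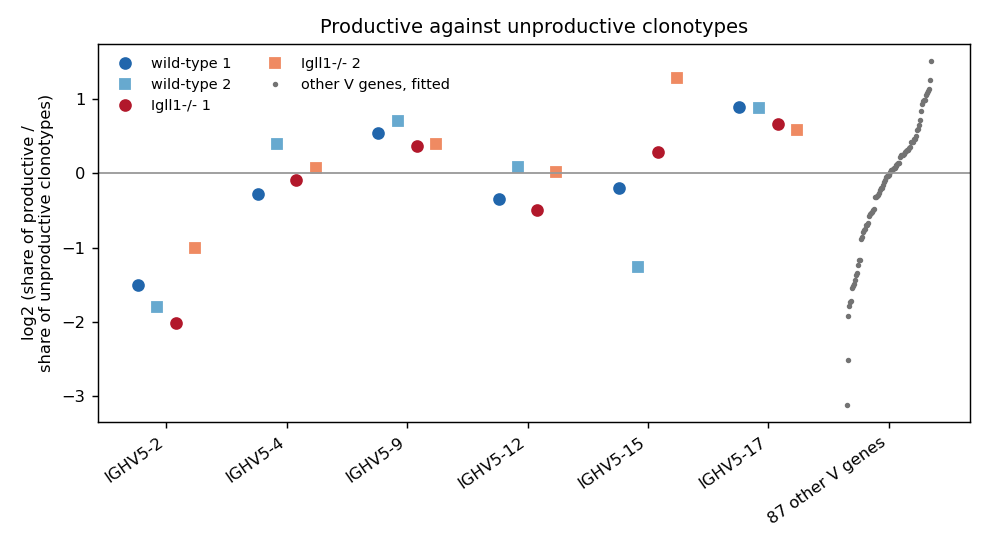
Log2 of a V gene's share of productive over its share of unproductive clonotypes, with 1 point for each library for IGHV5-2 and the members, and the fitted value of each other V gene tested in grey in increasing order. IGHV5-17 (0.58 to 0.89) and IGHV5-9 (0.36 to 0.70) lie above 0 in each library, and IGHV5-2 (−2.02 to −1.0002) lies below 0 in each.

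Summed over the 8 members, IGHJ2 made up a smaller and IGHJ3 a larger share of the clonotypes than in the other V genes of the same library. In V genes outside the 8 members, 44.5% to 45.8% of the clonotypes of a library used IGHJ2 and 17.8% to 24.9% used IGHJ3. Of the clonotypes of the 8 members, 36.6%, 42.9%, 36.4% and 37.2% used IGHJ2 and 31.1%, 21.3%, 32.4% and 31.0% used IGHJ3 (wild-type replicates 1 and 2, then Igll1-/- replicates 1 and 2). The direction was the same in the 4 libraries, and wild-type replicate 2 had the smallest gap for both J genes.

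The log2 ratio fitted for a J gene compares a V gene's share of clonotypes with that J gene to its share of clonotypes without it. The ratio was formed the same way for D families, and it is not the ratio of the printed percentages. IGHV5-12 used IGHJ2 in 34.6% and 38.4% of its clonotypes in wild-type libraries and 34.5% and 36.6% in Igll1-/- libraries (log2 ratio −0.47, SE 0.10, edgeR adjusted p = 0.0042). IGHV5-17 used IGHJ2 in 34.5%, 39.9%, 36.1% and 38.5% of its clonotypes, in the same order of libraries (log2 ratio −0.40, SE 0.11, edgeR adjusted p = 0.021). The ratios were −0.42 (SE 0.15, edgeR adjusted p = 0.056) for IGHV5-9, −0.86 (SE 0.32, edgeR adjusted p = 0.065) for IGHV5-15 and −0.17 (SE 0.12, edgeR adjusted p = 0.344) for IGHV5-4. Thus 2 of 5 members were called lower for IGHJ2, where 11% of 91 V genes were. The IGHV5-17 call was lost when wild-type replicate 1 was left out (edgeR adjusted p = 0.161), likewise Igll1-/- replicate 1 (0.075), Igll1-/- replicate 2 (0.057) or the clonotypes sharing a CDR3 with a larger one (0.053), and at 2 reads or more (0.292). The IGHV5-12 call was lost when wild-type replicate 1 was left out (edgeR adjusted p = 0.062) and at 2 reads or more (0.072), and IGHV5-15 was called once the clonotypes sharing a CDR3 were removed (log2 ratio −1.36, edgeR adjusted p = 0.040).

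IGHV5-9 used IGHJ3 in 33.9% and 23.4% of its clonotypes in wild-type libraries and 36.9% and 35.4% in Igll1-/- libraries, with a fitted log2 ratio of 0.64 (SE 0.09, edgeR adjusted p = 0.0021). IGHV5-17 used IGHJ3 in 32.8% and 22.4% in wild-type libraries and 38.3% and 32.9% in Igll1-/- libraries, with a fitted log2 ratio of 0.58 (SE 0.13, edgeR adjusted p = 0.015). The ratios of IGHV5-4 at 0.24 and IGHV5-12 at 0.20 were positive without passing the threshold (edgeR adjusted p = 0.157 and 0.209), and that of IGHV5-15 was −0.25 (edgeR adjusted p = 0.627). So 2 of 5 members were called higher for IGHJ3, where 7.78% of 90 V genes were. The IGHV5-17 call was lost when wild-type replicate 1 was left out (edgeR adjusted p = 0.110) and at 2 reads or more (0.066), and the IGHV5-9 call was made under each alternative run.

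For IGHJ1 and IGHJ4 together 0 of 10 tests of members were called by edgeR, with 2 at an unadjusted p under 0.05, against 21.7% of the 180 tests over V genes. The J use of no member differed between genotypes by the edgeR interaction test, in which 1.11% of 361 tests over V genes and J genes were called. With Igll1-/- replicate 1 left out IGHV5-12 with IGHJ1 was called (edgeR adjusted p = 0.022), and with Igll1-/- replicate 2 left out IGHV5-9 with IGHJ2 was (0.025). The smallest adjusted p among the members in that test was 0.239, for IGHV5-9 with IGHJ2, whose share was 38.2% and 46.1% in wild-type libraries and 26.6% and 36.5% in Igll1-/- libraries.

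**Figure D4:**
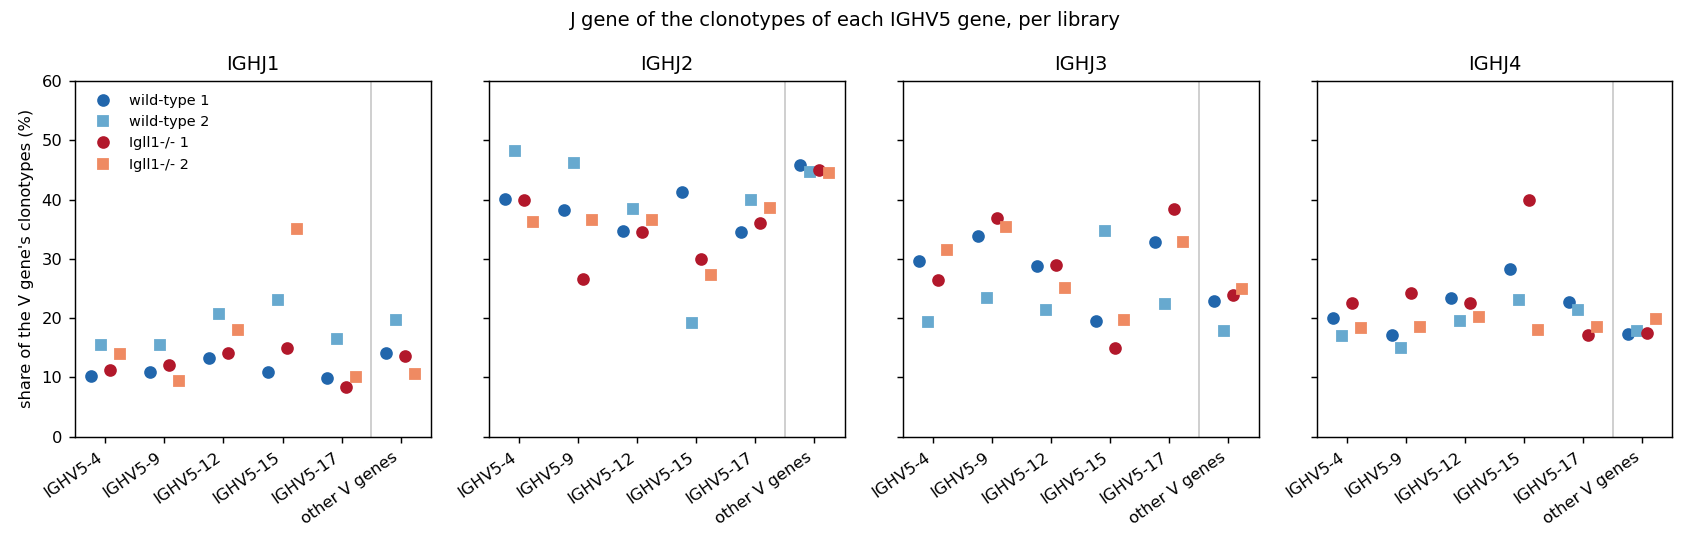
Share of a V gene's clonotypes with each of the 4 J genes, in percent, with 1 point for each library, and the same over the V genes outside the 8 members at the right of each panel. For IGHJ2 the IGHV5-12 and IGHV5-17 points (34.5% to 39.9%) lie below those of the other V genes (44.5% to 45.8%), and for IGHJ3 the IGHV5-9 and IGHV5-17 points lie above the other V genes of the same library.

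The D2 family led in each of the 4 libraries for the 8 members, at 39.3% to 43.7% of their clonotypes, followed by the D1 family at 31.6% to 37.3%, most of it IGHD1-1. Of 20 tests of members against all V genes, 1 was called by edgeR, where 13.5% of 364 tests were. This was IGHV5-4 with the D3 family, at 6.81% and 8.07% in wild-type libraries and 6.07% and 5.13% in Igll1-/- libraries against 8.78%, 8.94%, 7.52% and 6.52% of all clonotypes with 1 V gene (log2 ratio −0.31, SE 0.09, edgeR adjusted p = 0.018). The call was lost when wild-type replicate 1 (edgeR adjusted p = 0.098), Igll1-/- replicate 1 (0.137) or Igll1-/- replicate 2 (0.095) was left out, and at 10 reads or more (0.461). IGHV5-12 with the D3 family lay at a log2 ratio of −0.33 (SE 0.12, edgeR adjusted p = 0.066), which did not pass. It passed with productive clonotypes only (edgeR adjusted p = 0.0095), with near-identical clonotypes merged (0.0059), when clonotypes sharing a CDR3 with a larger clonotype were left out (0.021) and when wild-type replicate 2 was left out (0.0050), and its log2 ratio turned to 0.098 at 10 reads or more (edgeR adjusted p = 0.939). In 3 of the 20 combinations of a member and a D family the wild-type libraries lay on one side of all V genes and the Igll1-/- libraries on the other, where 7.97% of 364 combinations over V genes did.

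The CDR3 of the members was 10.5 to 11.2 residues long on average in the 4 libraries for IGHV5-4, IGHV5-9, IGHV5-12 and IGHV5-17. Productive clonotypes of V genes outside the 8 members averaged 10.8, 10.6, 10.5 and 10.3 residues (wild-type replicates 1 and 2, then Igll1-/- replicates 1 and 2). IGHV5-4 averaged 11.20, 11.07, 11.18 and 10.97 residues in the same order, and IGHV5-12 averaged 10.92, 11.10, 11.24 and 10.996. IGHV5-17 averaged 11.03, 10.79, 10.73 and 10.83 residues. These 3 genes lay above the other V genes in 4 of 4 libraries, a difference that was not tested, while IGHV5-9 did so in 3 of 4. The spread within a gene was wide, with an SD of 2.40 to 3.34 residues over the clonotypes of a library.

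Between genotypes the mean CDR3 length of the 4 members tested differed by −0.06 residues for IGHV5-4, 0.22 for IGHV5-9, 0.11 for IGHV5-12 and −0.12 for IGHV5-17 (Igll1-/- minus wild type). The standard error was 0.30 residues for each, as limma fitted 1 spread for all genes, and the limma adjusted p-values lay between 0.775 and 0.925. Of 60 V genes 3.33% were called, and 0 of the 4 members, of which 0 had an unadjusted p under 0.05. IGHV5-15 had too few clonotypes for this test.

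The first residues of the CDR3, which the V gene encodes in part, set IGHV5-4 and IGHV5-17 apart from IGHV5-9 and IGHV5-12. In IGHV5-4, 25.8% to 39.2% of the productive clonotypes of a library began with ARD. In IGHV5-9 and IGHV5-12 the leading start was ARH, at 29.9% to 38.2% and 25.3% to 34.98%. IGHV5-15 began with ARH in 47.6%, 22.7%, 52.6% and 39.5% of its few productive clonotypes. IGHV5-2, which is not a member, began with ARH in 31.25% to 40.8%. IGHV5-17 had no such leader, with ARR at 10.5% to 11.6%, ARG at 7.14% to 11.8% and ARP at 6.14% to 9.997%. Only 4.30% to 8.49% of IGHV5-17 clonotypes began with ARH, the start of its largest clonotype in 3 libraries, whereas the class of IGHV5-12-1 or IGHV5-17 began with ARH in 17.6% to 31.0%.

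Many CDR3 sequences of the members recurred between libraries. Of the distinct productive CDR3 sequences, 19.7% of IGHV5-4, 20.4% of IGHV5-9, 21.3% of IGHV5-12 and 20.9% of IGHV5-17 occurred with the same V gene in at least 2 libraries. Over the V genes outside the 8 members it was 13.7%. In all 4 libraries 178, 35, 92 and 172 sequences of these members occurred, which was 2.20% to 3.16% of each gene's sequences against 0.95% for the other V genes. The share depends on how many clonotypes a gene has, and the difference was not tested. It also counts clonotypes that share their CDR3 and J gene with a much larger clonotype of another V gene. These were 9.1%, 25.8%, 17.5% and 21.6% of the member clonotypes (wild-type replicates 1 and 2, then Igll1-/- replicates 1 and 2). Over all clonotypes they were 14.0%, 34.0%, 26.9% and 34.0%. Recurrence was not computed without them. Of 176 IGHV5-15 sequences 9 recurred and 0 were in all 4 libraries. Among those in all 4, ARHYYGSSYYFDY had the highest minimum of reads in IGHV5-9, IGHV5-12 and IGHV5-17 and the second highest in IGHV5-4, after ARDYYGSSYYFDY.

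Clonotypes that share their CDR3 and J gene with a much larger clonotype of another V gene were not spread evenly over the members. They were 6.26%, 17.2%, 10.7% and 12.7% of the IGHV5-17 clonotypes (wild-type replicates 1 and 2, then Igll1-/- replicates 1 and 2), below the library share in each case. They were 15.8%, 35.1%, 26.5% and 35.2% of the IGHV5-12 clonotypes, near the library share, and 21.7%, 46.2%, 55% and 53.8% of the few IGHV5-15 clonotypes. Their part in the results of IGHV5-15 was not tested beyond leaving them out. Without them the log2 ratio of IGHV5-17 in productive over unproductive clonotypes was 0.93 (edgeR adjusted p = 0.0010).

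The V identity that the authors' assignment gave was 96.67% for most member clonotypes. This value was the mode for each of the 5 frequent members in each library, at 55% to 76.8% of a gene's clonotypes, and at most 0.94% of them had an identity of 100%. Over V genes outside the family 50.9% to 54.7% of the clonotypes had an identity of 100% and at most 0.48% one of 96.67%. Identity was read over the short stretch between the primers, and the cause of the difference was not tested.

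The V genes outside the family whose share of clonotypes followed the 8 members most closely over the 4 libraries were IGHV1-22, IGHV6-3 and IGHV14-3. Among 42 V genes with at least 100 clonotypes in each library, their centred log2 shares lay at a root mean square distance of 0.14, 0.18 and 0.18 from those of the members together. IGHV1-22 made up 1.59% and 1.26% of the clonotypes in wild-type libraries and 1.34% and 1.79% in Igll1-/- libraries, lowest in wild-type replicate 2 and highest in Igll1-/- replicate 2 as the members were. With 4 libraries this likeness is a description.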

How the data were processed

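The authors amplified rearranged *Igh* loci from sorted B-1a cells with framework region 3 and J primers, kept products of 120 to 280 bp and assigned reads with IMGT/HighV-QUEST. The deposited tables give raw read counts per clonotype, without molecular barcodes, and the V identity as a percent; replicates were not pooled. Versions and genome build are not given in the sources used here, so no coordinates are printed. The members and lists were chosen with earlier results of these data known.

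A clonotype with 1 V gene added 1 to that gene, whatever its reads, and one with several V genes only to the library total. A V gene entered a fit when 2 or more libraries (or parts of a library split by productivity, J or D) held 10 or more of its clonotypes. Fits were made with edgeR 4.0.16 in R 4.3.3, with library as a block in the split fits. The library size was the total number of clonotypes of the library or part. In J and D fits it was the number of clonotypes with 1 V gene, so those with several V genes were left out there. CDR3 length was fitted with limma 3.58.1 for V genes with at least 30 productive clonotypes in each library. DESeq2 1.42.0 was an alternative. Calls used an adjusted p under 0.05. Single values over libraries used exact permutation tests and pairs of libraries Fisher's exact test (scipy 1.17.1). Intervals and floors cover counting error only. Fits were tested on simulated data with changes larger than those of the members. That check does not show whether changes of the members' size would be called. Named genes were the 8 members, the other IGHV5 genes, IGHV1 and IGHV2 as sums, IGHV11-2 and IGHV12-3 as label check, and the 3 V genes nearest to the members. The 6 *Igk* libraries were not used here.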

Additional observations from a re-analysis of the deposited data

Results flagged for a closer look

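In 3 of 20 combinations of a member and a D family, each wild-type library lay on one side of all V genes and each Igll1-/- library on the other in the share of that D family, and none of these differences was tested. The same was so in 29 of 364 combinations over all V genes, 7.97%. The IGHV5-9 share with the D2 family, relative to all V genes of the same library, was 4.98 percentage points higher in Igll1-/- libraries. The IGHV5-9 share with the D3 family moved by −4.16 percentage points. The IGHV5-15 share with the D4 family moved by −11.95 percentage points, on few clonotypes with that family. The D4 family made up 15.2% of 46 and 19.2% of 26 IGHV5-15 clonotypes in wild-type libraries. In Igll1-/- libraries it made up 0% of 20 and 6.84% of 117.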

How the results depend on the processing

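The summed share of the 8 members was higher in Igll1-/- libraries under each alternative run, by 0.22 (near-identical clonotypes merged) to 0.95 (reads) on the log2 scale, and by 0.12 to 0.58 when 1 library was left out. No member was called for usage between genotypes under any alternative, but values moved: IGHV5-4 from 0.34 to 0.18 merged, 0.90 with reads, 1.15 at 10 reads (edgeR adjusted p = 0.056) and 0.20 to 0.50 with 1 library left out, IGHV5-17 from 0.39 to 0.22 merged, 1.12 with reads and 0.13 to 0.72 with 1 library left out, and IGHV5-12 from 0.28 to 0.49 with reads, 0.55 at 10 reads and 0.044 to 0.57 with 1 library left out. The number of V genes called for usage, 0, became 1 with reads, with each combination of V genes as a feature, without clonotypes sharing a CDR3 (these last 2 chosen after seeing the data) and with DESeq2, 3 with at least 10 reads or unproductive clonotypes only, and 0 to 6 when 1 library was left out. The 18 calls for productive over unproductive became 0 at 10 reads and 9 (without wild-type replicate 1) to 21 with 1 library left out; the 1 interaction call became 0 at 10 reads or merged, 2 without clonotypes sharing a CDR3 and 0 to 4 with 1 library left out. The 79 J calls became 52 and 29 at 2 and 10 reads and 37 (without wild-type replicate 1) to 86 with 1 library left out; the 4 J genotype calls became 9 and 1 at 2 and 10 reads, 7 without clonotypes sharing a CDR3 and 3 to 12 with 1 library left out. Calls of members for J use numbered 4 of 20 and became 8 when near-identical clonotypes were merged. Over all V genes J calls then went from 79 to 106 of 361 tests. Calls of members for D use numbered 1 and became 5, while D calls over all V genes went from 49 of 364 tests to 57 of 362. Without clonotypes sharing a CDR3, members had 5 of 20 J calls, against 76 of 333 over all V genes. D calls there numbered 2 of 20, against 39 of 337. The 49 D calls became 30 and 9 at 2 and 10 reads and 31 to 47 with 1 library left out. The 2 CDR3 length calls became 7 by median length, 0 at 2 or 10 reads and without clonotypes sharing a CDR3, and 0 to 2 with 1 library left out. Fisher calls fell from 60, 60, 61 and 55 to 18, 21, 9 and 8 at 10 reads, where fewer clonotypes were tested; among members 1, 3, 0 and 0 were called, so that pairs of different genotype then gave more calls than pairs of the same genotype.

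Values of members that changed sign, none of them called, were as follows. For usage, IGHV5-9 gave −0.17 with reads, −0.074 at 2 reads, −0.17 at 10 reads and −0.082 to 0.29 with 1 library left out, and IGHV5-15 gave −0.14 to 1.56 with 1 library left out. For productive over unproductive, IGHV5-4 gave −0.041 at 2 reads, −0.19 at 10 reads, −0.057 merged and −0.10 to 0.12 with 1 library left out. IGHV5-9 gave −0.72 at 10 reads and was called when merged (0.59, edgeR adjusted p = 0.035). IGHV5-15 gave −0.24 at 2 reads, −0.040 merged, −0.15 without clonotypes sharing a CDR3 and −0.50 to 0.54 with 1 library left out. For its genotype difference, IGHV5-4 gave 0.46 at 10 reads, 0.10 without clonotypes sharing a CDR3 and −0.39 to 0.27 with 1 library left out; IGHV5-12 gave 0.13, 0.11 and −0.36 to 0.16 likewise; IGHV5-9 gave 0.14 merged and IGHV5-15 −0.24 at 2 reads. For CDR3 length, IGHV5-12 gave −0.038 residues at 2 reads and −0.011 to 0.24 with 1 library left out, IGHV5-17 gave 0.13 with reads as weights and 0.13 at 10 reads, and IGHV5-4 gave −0.16 to 0.045 with 1 library left out. IGHV5-12 gave −0.053 with IGHJ3 and 0.10 with the D3 family at 10 reads, and IGHV5-15 gave −0.54 to 0.024 with IGHJ3 when 1 library was left out. The causes were not tested.

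The wild-type and Igll1-/- libraries share replicate numbers, but nothing in the labels says that a number marks a shared experiment. Deviations of same-numbered libraries correlated at r = 0.32 over 91 V genes. With the replicate number as a block, usage still gave 0 calls, CDR3 length gave 5, and the summed share differed by 0.35 (exact p = 0.5 over 2 pairs).

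At 10 reads 41 to 42 V genes were left for usage and productivity, and shares below the floor of 3 clonotypes cannot be seen; 2 libraries a genotype set the precision of each comparison.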
